A study of Mus musculus with 4 samples.

Results

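The miR-25/92 and miR-19 seed families were examined in small RNA libraries of Tbx18-lineage stroma from around the wolffian duct of mouse embryos. Members were taken by gene, as the rows of the deposited table that map to Mir25, Mir92-1, Mir92-2, Mir92b and Mir363 for the miR-25/92 seed and to Mir19a, Mir19b-1 and Mir19b-2 for the miR-19 seed. These are 8 of the 2976 rows of the table and 8 of its 643 miRNA genes. All 4 libraries belong to 1 group of CD1 embryos at E10.5 that carried Tbx18-Cre and CAG-tdTomato, and the labels also describe them as wildtype. In this system the Tbx18 promoter drives Cre, and the red reporter then marks cells that have expressed Cre together with their descendants, so sorted cells need not still express Tbx18. There was no other genotype, stage or treatment, so the data hold levels and their spread within 1 labelled group of sorted cells. Markers of cell types, given below, differed between its libraries. Whether each library stands for its own embryo, litter or pool is not in the labels, so every spread and p-value measures these libraries alone and may be technical.

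A miRNA gene is transcribed into a precursor that folds into a hairpin, from which a short mature strand is cut and loaded into an Argonaute protein. Bases 2 to 8 of that strand, the seed, pair with target messenger RNAs and largely decide which are repressed, so genes with the same seed form a family even when they lie on different chromosomes. The genes described here lie mostly in 3 paralogous clusters, miR-17/92, miR-106a/miR-363 and miR-106b/25, of which miR-17/92 is a target of Myc and is needed for normal growth of several organs. In humans, germline deletion of 1 copy of the miR-17/92 host gene causes Feingold syndrome, and in mice its loss in nephron progenitors impairs kidney development. In mouse B-cell lymphoma, miR-19 is the part of the cluster that accounts for much of its tumour-promoting activity.

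The mature strands are shown first, because which genes can be told apart depends on them. They were taken from RefSeq for GRCm38.p6, where all 8 members had an entry, and are written 5′ to 3′ with the seed in capitals.
miR-92a-3p (Mir92-1 and Mir92-2): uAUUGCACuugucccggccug
miR-25-3p (Mir25): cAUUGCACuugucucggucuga
miR-92b-3p (Mir92b): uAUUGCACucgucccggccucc
miR-363-3p (Mir363): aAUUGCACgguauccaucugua
miR-19a-3p (Mir19a): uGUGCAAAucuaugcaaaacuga
miR-19b-3p (Mir19b-1 and Mir19b-2): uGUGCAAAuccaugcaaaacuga
Counting positions from 1 at the 5′ end and giving the base of miR-92a-3p first, miR-25-3p differs from miR-92a-3p by U1C, C14U and C18U over 21 bases, and miR-92b-3p by U10C and G21C. The strand of Mir363 differs at 11 of 21 positions, 10 of them after the seed, so it shares the seed and little of the rest. Within the other family, miR-19b-3p differs from miR-19a-3p by U11C and is the same at 22 of 23 positions. G and C made up 57.1% of the bases of miR-92a-3p, 50.0% of miR-25-3p, 63.6% of miR-92b-3p and 40.9% of miR-363-3p, against 34.8% of miR-19a-3p and 39.1% of miR-19b-3p.

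Among 1738 mature entries in the RefSeq table, the seed AUUGCAC was also carried by miR-32-5p and miR-367-3p, and the seed GUGCAAA by no gene outside the 3 members. Mir32, on chromosome 4 in an intron of Tmem245, had 4.08, 4.52, 5.22 and 3.18 TPM in libraries 1 to 4. Mir367 belongs to a cluster known from pluripotent cells and lies on chromosome 3 within an intron of Larp7, on the opposite strand. It was listed at 0 except for 2 reads (0.139 TPM) in library 3. TPM is the read count of a gene divided by its length and scaled to a fixed total. Adding both genes took the summed miR-25/92 level to 2134 ± 1309 TPM, against 2130 ± 1309 TPM without them (SD, n = 4), so the 5 members held nearly all of what was listed for this seed.

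The members with copies are shown as hairpins, with the 3p mature strand in capitals, because the copies differ outside it. Mir92-1 lies at chr14:115044427-115044506 on the plus strand and Mir92-2 at chrX:52741838-52741928 on the minus strand (GRCm38).
Mir92-1: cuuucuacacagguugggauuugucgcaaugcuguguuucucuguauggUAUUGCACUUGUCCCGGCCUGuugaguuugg
Mir92-2: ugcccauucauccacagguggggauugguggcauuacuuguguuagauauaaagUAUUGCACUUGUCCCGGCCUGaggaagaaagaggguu
The 3p strands are identical over 21 of 21 bases, while the 5p strands match at 17 of 22, counted position by position without gaps. Mir19b-1 lies at chr14:115044305-115044391 on the plus strand and Mir19b-2 at chrX:52741983-52742066 on the minus strand.
Mir19b-1: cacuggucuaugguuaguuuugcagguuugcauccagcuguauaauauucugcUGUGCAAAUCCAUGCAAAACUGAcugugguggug
Mir19b-2: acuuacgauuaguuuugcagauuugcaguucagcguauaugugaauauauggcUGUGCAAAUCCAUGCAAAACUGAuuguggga
Here too the 3p strands are identical, over 23 of 23 bases, and the 5p strands match at 16 of 23 by the same count. These 5p strands are 23 and 24 nt long, and a shift of 1 base counts as a run of mismatches. The deposited rows are hairpin genes and do not separate the 2 arms, and the sources used here do not state how a read of a shared 3p strand was assigned to a copy.

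Of the 8 members, 7 reached at least 1 TPM in all 4 libraries, against 33.1% of the 643 miRNA genes. A mean of at least 100 TPM was reached by 4 members, Mir92-2, Mir25, Mir19a and Mir92b, against 10.6% of miRNA genes. The remaining member, Mir92-1, was listed at 0 in all libraries, as were 31.6% of miRNA genes. The reads behind the miRNA genes, recovered from TPM and length, came to 883201, 1087240, 978210 and 146255 for libraries 1 to 4, the last being much shallower. TPM values of this table summed to between 2.33% and 7.22% of the total to which TPM is scaled, and lowest in library 4, and a TPM level depends on how much of its library went to genes not used here. Shares of the summed miRNA TPM are therefore given as well.

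The miR-25/92 family was led by 2 genes at similar levels. Mir92-2, the X-linked copy that holds all reads listed for the miR-92a hairpins, had 851, 1230, 1868 and 372 TPM in libraries 1 to 4 and averaged 1080 ± 632 TPM (SD, n = 4). It rested on 19793, 23008, 32587 and 3651 reads and ranked 9 of 643 miRNA genes by mean TPM. In endothelial cells miR-92a is known to restrain vessel growth. Mir25, the last hairpin of the miR-106b/25 cluster, had 649, 1239, 1252 and 209 TPM, averaging 837 ± 504 TPM (SD, n = 4), and ranked 10. It lies at chr5:138165321-138165404 on the minus strand within Mcm7, which encodes a subunit of the replicative helicase, and overlaps an exon of an annotated transcript. In TPM, both genes were highest in library 3 and lowest in library 4. As shares of the miRNA total, Mir92-2 had 2.00%, 1.88%, 3.03% and 2.27% in libraries 1 to 4. Mir25 had 1.53%, 1.89%, 2.03% and 1.27%. By share, Mir92-2 was thus lowest in library 2 and Mir25 in library 4.

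Levels of miR-92a and Mir25 were close. The log2 ratio of miR-92a, summed over its copies, to Mir25 was 0.45 ± 0.35 (SD, n = 4), and it was above 0 in 3 of 4 libraries, with -0.01 in library 2. An exact two-sided permutation test, which flips the sign of each library's ratio, gave p = 0.25 (Benjamini-Hochberg adjusted p = 0.286 over the 16 ratios computed). Hairpin length matters for this pair, since Mir92-2 is 91 and Mir25 84 nt long, and in reads Mir92-2 was above Mir25 in library 2 as well, at 23008 against 21388.

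**Figure D1:**
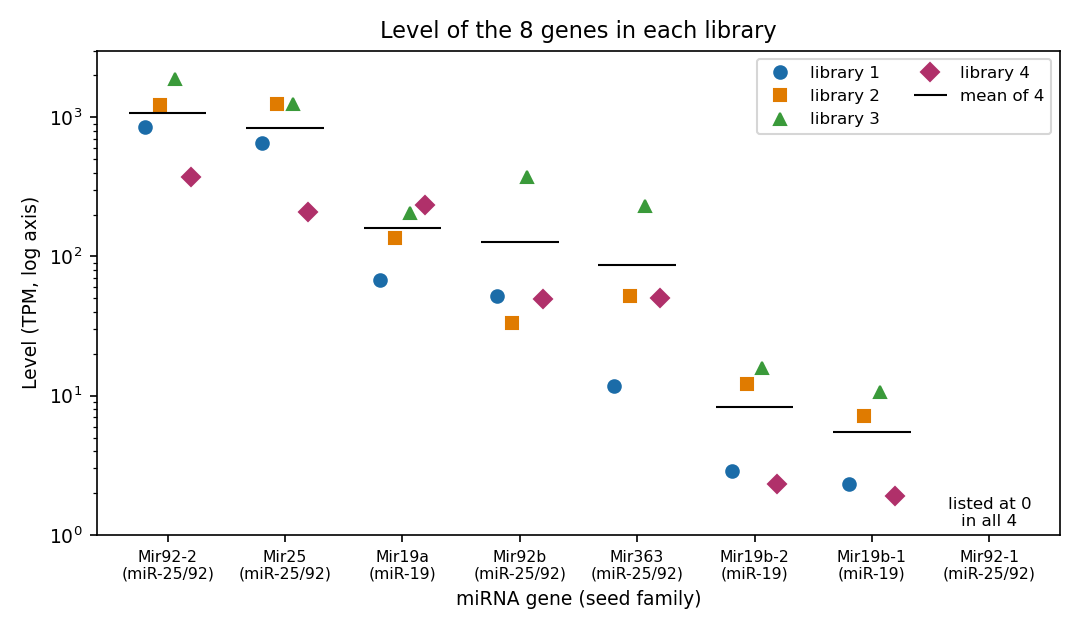
Level of each of the 8 genes in TPM on a log axis, with 1 point per library and a bar at the mean of the 4 libraries, ordered by mean. Mir92-2 and Mir25 sit highest, and Mir19a is the gene whose highest point is library 4. Mir92b and Mir363 stand out in library 3 in TPM, and less so as shares of the miRNA total.

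The other miR-25/92 members were lower and uneven between libraries. Mir92b, which in the mouse cortex limits the number of intermediate neural progenitors, had 51.7, 33.5, 372 and 49.2 TPM in libraries 1 to 4. In TPM, library 3 stood apart by Dixon's test, at 7.19 times the next highest library, as 1 library did for 7.98% of detected miRNA genes. As shares of the miRNA total, Mir92b had 0.122%, 0.0512%, 0.603% and 0.300% in libraries 1 to 4. By share, library 3 was again highest but did not stand apart by the same test. The mean was 127 ± 164 TPM (SD, n = 4) and 44.8 TPM without library 3. Mir92b lies alone, at chr3:89227116-89227198 on the minus strand and outside annotated genes. Mir363, the last hairpin of the X-linked cluster at chrX:52741693-52741767, had 11.8, 52.0, 230 and 50.6 TPM. Its shares of the miRNA total were 0.0277%, 0.0794%, 0.373% and 0.308%, with libraries 3 and 4 closer than in TPM. Its mean was 86.2 ± 97.9 TPM (SD, n = 4) and 38.1 TPM without library 3, and its highest library had 19.6 times the TPM of its lowest, the widest span among the 7 members with reads.

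Against these, the leading genes were higher in every library. The log2 ratio of miR-92a to Mir92b was 3.60 ± 1.25 and that to Mir363 was 4.12 ± 1.50, the second being 3.47 without library 1. Mir25 exceeded Mir92b by 3.15 ± 1.57 and Mir363 by 3.67 ± 1.73 (SD, n = 4), or by 2.48 without library 2 and 3.00 without library 1. Each of these 4 ratios was above 0 in 4 of 4 libraries, which gives p = 0.13 in the exact two-sided permutation test (adjusted p = 0.167). That is the smallest p that 4 libraries allow, so no ratio in this design could pass a threshold of 0.05. Mir92b and Mir363 could not be ordered, with a log2 ratio of 0.52 ± 1.15 that was above 0 in 2 of 4 libraries (exact permutation p = 0.50, adjusted p = 0.533) and 0.01 without library 1.

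Mir92-1, the last hairpin of the miR-17/92 cluster, has no listed read, and this 0 cannot be read as absence. All 80 bases of its hairpin lie within the RefSeq gene Mir17hg, which has a row of its own at 0.00167 to 0.0317 TPM, and its 3p mature strand has the same sequence as that of Mir92-2. Of the miRNA genes that overlap another row by at least 10 bases, 54.5% (42 of 77) were listed at 0 in all libraries, against 28.4% (161 of 566) of those without such an overlap. The part of the overlap or of the shared strand in the value of Mir92-1 was not tested. Counting alone would allow up to 0.147, 0.182, 0.196 and 0.348 TPM in libraries 1 to 4, at 3 reads, and these limits cover counting error only.

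In the miR-19 family nearly all of the listed level was Mir19a. Mir19a, the third hairpin of the miR-17/92 cluster at chr14:115044000-115044081 on the plus strand, had 67.7, 135, 204 and 236 TPM in libraries 1 to 4 and averaged 161 ± 74.8 TPM (SD, n = 4). It is the single member with its highest TPM in library 4. Mir19b-2 had 2.89, 12.2, 15.8 and 2.32 TPM, and Mir19b-1 had 2.34, 7.16, 10.6 and 1.92 TPM. In TPM both copies were highest in library 3 and lowest in library 4. As shares of the miRNA total both were lowest in library 1, at 0.00679% for Mir19b-2 and 0.00550% for Mir19b-1. In library 4 these shares were 0.0141% and 0.0117%. Mir19a made up 92.8%, 87.5%, 88.5% and 98.2% of the family's TPM. The log2 ratio of Mir19a to miR-19b, summed over its copies, was 3.65 ± 1.27 (SD, n = 4), above 0 in 4 of 4 libraries (exact two-sided permutation p = 0.13, adjusted p = 0.167). Without library 4 the ratio was 3.04. With a pseudocount of 10 TPM in place of 1 it was 2.83. The gap is between hairpin rows, whose 3p strands differ at 1 base, and the arm that gave the reads is not in the table. The 3p strand of miR-19b is encoded by both Mir19b-1 and Mir19b-2, and that of miR-19a by Mir19a alone. Shared reads left out of every row would lower miR-19b and not Mir19a, and their part in the gap was not tested.

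The copies of miR-19b, unlike those of miR-92a, both had reads. Mir19b-1 took 45.6%, 37.8%, 41.1% and 46.2% of them in libraries 1 to 4, with 95% Wilson intervals of 36.8% to 54.8%, 32.8% to 43.0%, 36.5% to 45.8% and 31.6% to 61.4%. The reads were few, 52 and 62 for Mir19b-1 and Mir19b-2 in library 1 and 18 and 21 in library 4. The intervals cover counting error only, and the rule by which reads of the identical 3p strand were assigned is unknown, so the split is given as a description. Mir19b-1 overlaps the Mir17hg row by 2 bases.

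Summed over members, the miR-25/92 family had 1563, 2554, 3722 and 681 TPM in libraries 1 to 4, or 4.44% ± 1.08 of the miRNA total (SD, n = 4). The miR-19 family had 72.9, 155, 230 and 240 TPM, or 0.561% ± 0.608 of the miRNA total, and 0.260% without library 4. The log2 ratio of the families was 4.40, 4.04, 4.01 and 1.50, with a mean of 3.49 ± 1.34 (SD, n = 4) and of 4.15 without library 4. It was above 0 in 4 of 4 libraries (exact two-sided permutation p = 0.13, adjusted p = 0.167). Both miR-92a and miR-19b have a copy in the X-linked and in the chromosome 14 cluster. Between them, miR-92a was higher by 6.32 ± 0.53 log2 units (SD, n = 4), with the same p. This was the largest of the 16 ratios, and it was 5.41 with a pseudocount of 10 TPM. Shared reads left out of every row could lower either sum, and their part in this ratio was not tested.

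**Figure D2:**
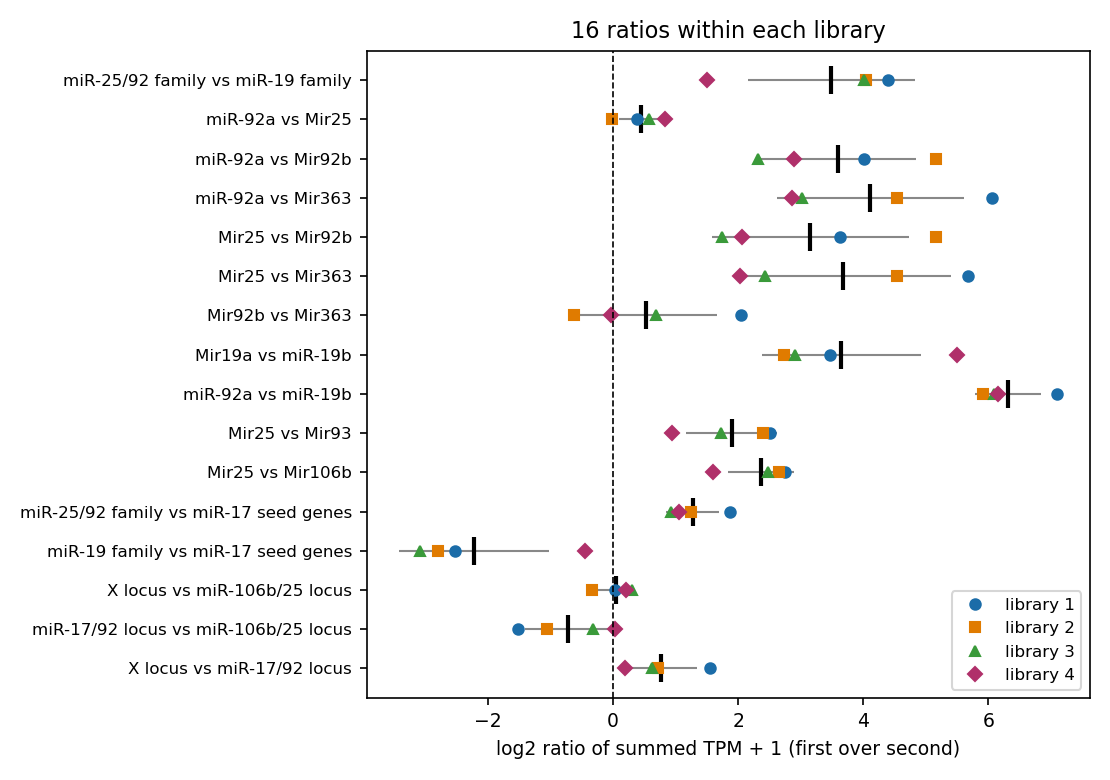
The 16 log2 ratios of summed TPM + 1, the first name over the second, with 1 point per library, a tick at the mean and a line of 1 SD to each side. Most lie on 1 side of 0 in all libraries, and library 4 is set apart in the ratio of the miR-25/92 to the miR-19 family, at 1.499 against 4.01 to 4.40 in the others.

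In the order of mean TPM, Mir92-2, Mir25, Mir19a, Mir92b, Mir363, Mir19b-2, Mir19b-1 and Mir92-1, some neighbours changed places between libraries. Mir25 lay above Mir19a by 2.22 ± 1.62 log2 units but below it in library 4, at -0.18. Mir19a lay above Mir92b by 0.93 ± 1.45, in 3 of 4 libraries, and this difference, like that of Mir92b and Mir363, was smaller than its SD. Below these, Mir363 was above Mir19b-2 by 2.87 ± 1.17 and Mir19b-2 above Mir19b-1 by 0.41 ± 0.25 (SD, n = 4), each in 4 of 4 libraries. The order of the miR-19b copies depends on how reads of their shared 3p strand were assigned, which is unknown. Their Wilson intervals included an even split in libraries 1 and 4 and not in libraries 2 and 3.

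The cluster mates of the members were next set beside them. In the miR-106b/25 cluster, Mir25 had 75.7%, 74.2%, 67.6% and 54.2% of the TPM of its 3 hairpins in libraries 1 to 4. Mir93 and Mir106b, whose strands carry the miR-17 seed, averaged 208 ± 127 and 146 ± 75.5 TPM. Mir25 exceeded Mir93 by 1.90 ± 0.73 log2 units and Mir106b by 2.37 ± 0.53 (SD, n = 4), each in 4 of 4 libraries (exact two-sided permutation p = 0.13, adjusted p = 0.167). The 3 hairpins lie within 498 nt on the same strand of Mcm7, so levels differed between hairpins of 1 host gene.

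In the miR-17/92 cluster, 836 nt long, Mir19a had 22.7%, 16.8% and 13.7% of the TPM listed for the 6 hairpins in libraries 1 to 3 and 60.2% in library 4. Mir17 had 130, 371, 692 and 75.5 TPM, and Mir20a 83.3, 254, 521 and 62.9 TPM. Mir19a was therefore below both in libraries 1 to 3 and above both in library 4. The last hairpins, Mir19b-1 and Mir92-1, had 0.720% ± 0.169 (SD, n = 4) and none of the listed TPM. Mir18 had a mean of 30.9 ± 19.9 TPM (SD, n = 4).

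In the X-linked cluster, 875 nt long, Mir92-2 had 97.6%, 93.2%, 81.5% and 83.6% of the TPM of 6 hairpins. Mir363, 70 nt further along, had 1.35%, 3.94%, 10.1% and 11.4%. Mir106a, Mir18b and Mir20b averaged 5.28, 8.47 and 43.6 TPM, or 1.61, 3.57 and 12.1 TPM without library 3. Kis2, whose row overlaps Mir106a by 5 bases, was listed at 0.00193 TPM in library 1 and at 0 in the others. The other hairpins of this cluster lie outside annotated host genes. Without Mir92-2 the cluster summed to 21.0, 89.4, 424 and 73.1 TPM, so most of its listed level is the row of a hairpin whose 3p strand the chromosome 14 copy also encodes.

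**Figure D3:**
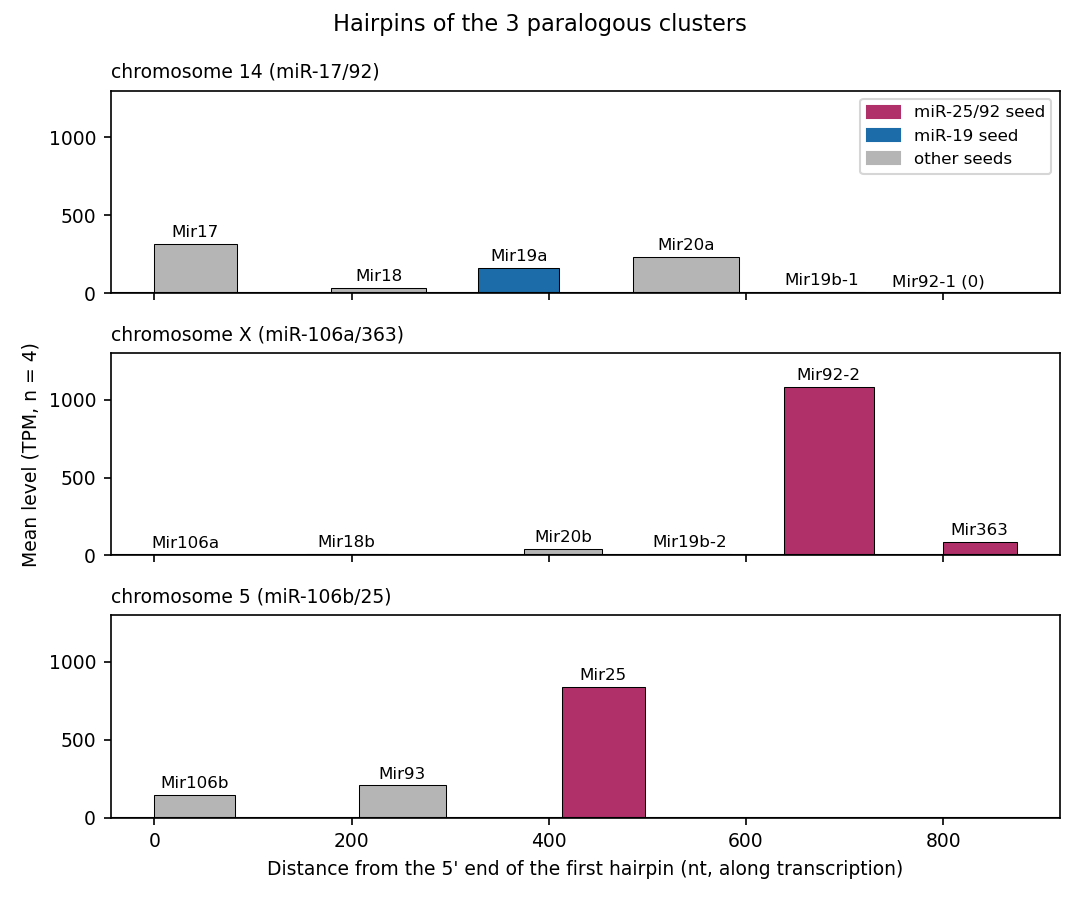
Mean TPM over 4 libraries (bars) of each hairpin of the 3 clusters, placed by its distance in nt from the start of the first hairpin along the direction of transcription. Bar width is hairpin length, and the tallest bars, at 1080 and 837 TPM, are the miR-25/92 seed genes Mir92-2 and Mir25 near the ends of their clusters.

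Comparisons between whole clusters turned on that copy. With each row counted at its own coordinates, the X-linked cluster exceeded miR-17/92 by 0.77 ± 0.57 log2 units, in 4 of 4 libraries (exact two-sided permutation p = 0.13, adjusted p = 0.167). With the miR-92a and miR-19b reads all counted on chromosome 14 this became -4.27, and split evenly -0.93. The X-linked cluster and miR-106b/25 did not separate, at 0.05 ± 0.28 (p = 0.875 by exact permutation, adjusted p = 0.875), and miR-17/92 lay at -0.72 ± 0.70 (SD, n = 4) against miR-106b/25 (p = 0.25 by exact permutation, adjusted p = 0.286). Which cluster was higher therefore cannot be told from these rows.

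Sums by seed hold both copies, so moving reads between copies changes them through hairpin length alone, and reads assigned to no row are not in them. Over the 15 genes of the 3 clusters, the miR-25/92 seed held 74.6%, 66.4%, 59.5% and 51.7% of the TPM in libraries 1 to 4. The miR-17 seed held 21.1%, 28.4%, 35.0% and 26.9%, the miR-19 seed 3.60%, 4.07%, 4.09% and 19.6%, and the miR-18 seed 0.762% to 1.80%. With Mir92b included, the miR-25/92 family exceeded the 6 miR-17 seed genes by 1.27 ± 0.42 log2 units, in 4 of 4 libraries. The miR-19 family lay below them, with a log2 ratio of -2.22 ± 1.20 (SD, n = 4), in 4 of 4 libraries, or -2.81 without library 4. Both gave p = 0.13 in the exact two-sided permutation test (adjusted p = 0.167).

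**Figure D4:**
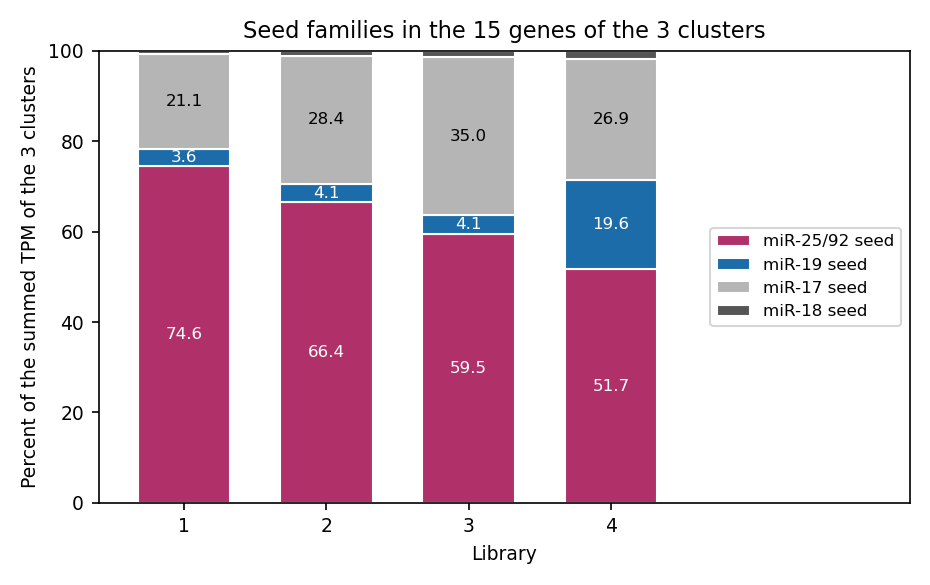
Percent of the summed TPM of the 15 cluster genes held by each seed family, with 1 stacked bar per library. The miR-25/92 seed holds over 50% in each library, and the miR-19 seed holds 19.6% in library 4 against 3.60% to 4.09% in the others.

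Libraries differed in which members were high. Of the 7 members with reads, 6 had their highest TPM in library 3, as did 35.7% of the 213 miRNA genes that reached 1 TPM in each library, and all 8 cluster mates did. As shares of the miRNA total the same 6 members were highest in library 3, against 22.5% of detected genes, while 4 mates were highest there and 4 in library 4. These genes share clusters, strands and libraries and are not independent of each other. On log2(TPM + 1) centred for each gene, Mir92b and Mir363 in library 3 stood 3 and 4 in the order of 213 detected genes, at 2.29 and 2.12 above their own means, and the median gene was at 0.41. In library 1, Mir363 was last of 213, at -2.06.

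Mir19a went the other way. Its share of the miRNA total was 0.159%, 0.206%, 0.330% and 1.44% in libraries 1 to 4, so library 4 was 4.36 times the next highest and stood apart by Dixon's test, as 1 library did in share for 10.8% of detected genes. Detected genes with their highest share in library 4 made up 34.3%. In TPM it was highest in library 4, as were 3.29% of detected genes (7 of 213), and it stood 6 in the order of centred levels there, at 0.70 where the median gene was at -1.11. It rested on 2085 reads in library 4, against 1420, 2279 and 3200 in libraries 1 to 3. The copies of miR-19b, whose 3p strand is nearly identical, had 0.0258% of the miRNA total in library 4, within its range of 0.0123% to 0.0428% in the others.

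**Figure D5:**
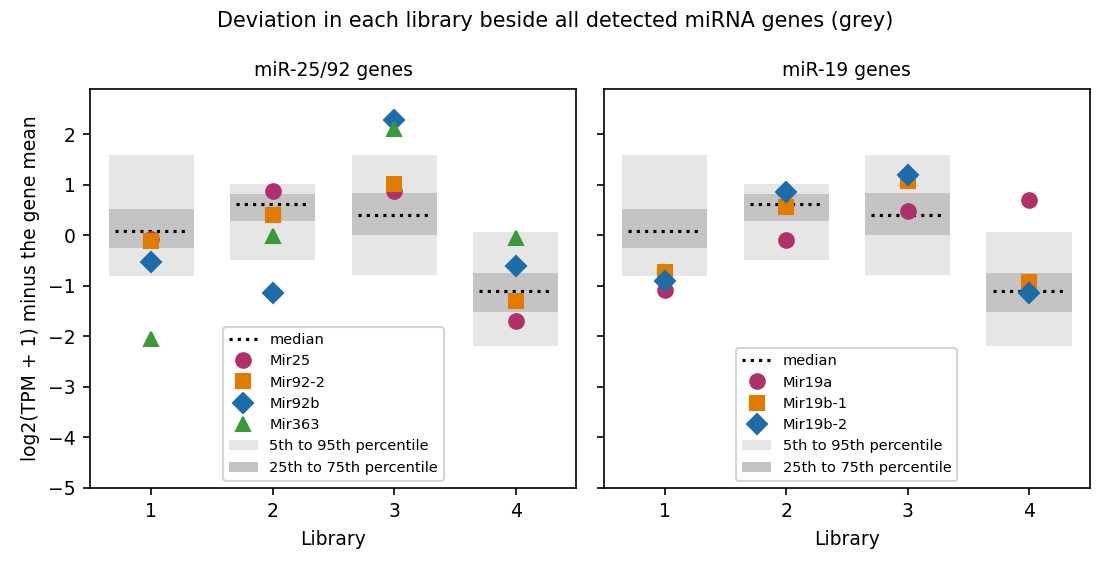
log2(TPM + 1) minus each gene's own mean, by library, for the 4 miR-25/92 genes with reads (left) and the 3 miR-19 genes (right), over the percentiles of 213 detected miRNA genes (grey boxes, dotted median). Mir92b and Mir363 lie above the 95th percentile in library 3 and Mir19a does so in library 4, where the copies of miR-19b lie near the median.

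Markers of cell types were read in the same libraries, since in bulk samples fewer cells of a type and less RNA per cell cannot be told apart. Mesenchymal miRNAs (Mir199a-1, Mir199a-2, Mir199b and Mir214) summed to 1327, 1255, 855 and 128 TPM, or 3.12%, 1.92%, 1.39% and 0.779% of the miRNA total in libraries 1 to 4, with Mir199a-2 and Mir214 listed at 0. Neural miRNAs (copies of miR-9 and miR-124, 6 genes with Mir124a-1 at 0) took 0.818%, 0.0545%, 4.68% and 0.492%, and were thus highest in library 3 with Mir92b. In library 4, where Mir19a was highest, endothelial Mir126a had 1.53% against 0.659% to 0.856% in the others, liver Mir122 0.875% against 0.0359% to 0.216%, and 5 striated muscle genes with Mir1a-2 at 0 had 1.36% against 0.193% to 0.803%. In TPM, Mir122 was again highest in library 4, but Mir126a was lowest there, at 251 against 280 to 528 TPM, and the striated muscle genes were highest in library 1, at 341 TPM against 224 TPM in library 4. Smooth muscle miRNAs took 0.955% to 1.71%, and 6 epithelial genes, markers of tubes such as the wolffian duct, 0.0707% to 0.265%. The 3 erythroid genes, with Mir486 at 0, took at most 0.0192%, and the 4 white blood cell genes, with Mir223 at 0, at most 0.0220%. The part of these cell types in the levels of the members was not tested.

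The genes whose levels varied most like each member over the 4 libraries were found by the root mean square difference of centred log2(TPM + 1) among miRNA genes with a mean of at least 100 TPM. Mir25 was nearest to Mir30d, Mir151 and Mir26b, at 0.08, 0.11 and 0.13, where the median over 67 genes was 0.59. Mir92-2 was nearest to Mir30c-2, Mir151 and Mir10a, at 0.17, 0.26 and 0.26, with a median of 0.60. Among these genes Mir92b had no near match, with Mir183, Mir93 and Mir20a at 0.92, 0.98 and 1.04. Neither did Mir19a, with Mir126a, Mir93 and Mir615 at 0.73, 0.83 and 0.88. Both of these members lay far from most of the compared genes, with medians of 1.47 and 1.34. Genes with a lower mean, such as the cluster mates Mir106a and Mir18b, were not compared. By spread on the log2 scale, 11 of 213 detected genes had a larger SD than Mir363 and 23 a larger SD than Mir92b, whereas 99 had a larger SD than Mir92-2.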

How the data were processed

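Total RNA of sorted cells was made into libraries with the NEBNext small RNA kit and read on a NextSeq as 75 bp single reads, per the labels' protocols. The deposited values are TPM, 1 row per Entrez gene. Per the submitters' processing notes, limma and the build mm10 (GRCm38) were used. Not given in the sources used here are the aligner, the counter and the handling of reads that fit several genes. Gene IDs were joined to RefSeq genes of GRCm38.p6 (2541 of 2976 rows matched), and host genes came from GENCODE M21. TPM times gene length gave whole multiples of 1 constant per library for 100% of nonzero miRNA values (tolerance 0.01), and these reads served for depth and alternatives. Dividing by hairpin length favours short hairpins, and ligation preferences make levels of different miRNAs relative.

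The members and lists were chosen with earlier results of these data known. Named genes are the 8 members, other genes of the same seeds, the 8 cluster mates, and the rows Mir17hg and Kis2, which overlap cluster hairpins. The 3 genes most like each member with a mean of at least 100 TPM are named too. Ratios are log2 of summed TPM with a pseudocount of 1, which understates differences of low genes. They were tested by flipping the signs of the 4 values in every way (an exact two-sided permutation test), with Benjamini-Hochberg adjustment over 16 ratios. Dixon's test was used to find libraries that stood apart. The steps were tested on simulated data. Alternatives covered the pseudocount, hairpin length, low values, the place of copies and each library left out. Software was numpy 2.4.6, scipy 1.17.1, pandas 2.3.3 and matplotlib 3.10.9 in Python 3.11.15.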

Additional observations from a re-analysis of the deposited data

Results flagged for a closer look

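Dixon's test with the 95% critical value for 4 samples was applied to 32 sets of 4 values, namely the TPM and the share of the miRNA total of the 7 members with reads, the 2 family shares and the 16 ratios. It marked 4 of them, and chance marks about 1 in 20. Among detected miRNA genes it marked 7.98% in TPM and 10.8% in share. The TPM of Mir92b was 372 in library 3, against 33.5 to 51.7 in the others. Its share of the miRNA total was not marked. The share of the miRNA total of Mir19a was 1.44% in library 4, against 0.159% to 0.330% in the others. The miR-19 family, which is mostly Mir19a, had 1.46% in library 4, against 0.172% to 0.373%. The log2 ratio of the miR-25/92 to the miR-19 family was 1.499 in library 4, against 4.01 to 4.40. The last 3 rest on the same value of Mir19a and are not separate observations.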

How the results depend on the processing

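The 13 ratios that do not compare clusters kept their sign under each pseudocount, without division by length, with low genes left out and without each library. A pseudocount of 10 TPM lowered miR-92a against miR-19b to 5.41 and Mir19a against miR-19b to 2.83. With the shared copies counted at the miR-17/92 locus, all 3 cluster ratios turned: the X-linked cluster lay at -4.27 against miR-17/92 and -3.63 against miR-106b/25, and miR-17/92 at 0.64 against miR-106b/25. Split evenly, the values were -0.93, -0.80 and 0.12. The reassignment itself makes these changes. With 1 library left out, the X-linked cluster against miR-106b/25 ranged from -0.035 to 0.18. The number of miRNA genes detected was 213 at 1 TPM, 113 at 10 TPM and 319 above 0. The miR-25/92 share was 4.72% and the miR-19 share 0.559% in reads not divided by length. No comparison between groups of libraries was possible because all libraries belong to 1 group, and each ratio compares genes within a library. No ratio could pass 0.05 with 4 libraries, so the p-values say nothing about stability. Depth was low for the copies of miR-19b, at 18 and 21 reads in library 4.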

Other observations

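Besides Mir19a, 6 detected miRNA genes had their highest TPM in library 4, named here after their values were seen. Mir122 had 91.8, 23.5, 51.7 and 143.5 TPM in libraries 1 to 4, Mir1839 49.7, 41.8, 41.2 and 134 TPM, and Mir3068 10.1, 7.64, 8.25 and 49.9 TPM. Mir376b, Mir374b and Mir376a were lower, with means of 14.2, 3.07 and 2.66 TPM. None of the 6 carries either seed.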
